A study of Mus musculus with 3 samples.

Results

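The 7 genes described here are Dtx1, Notch1, Notch2, Rbpj, Numb, Nrarp and Hes1, members of the Notch signalling pathway, out of 25638 gene names in the count table. They were chosen by gene name and with measured values in view, because Dtx1 counts in the effector memory library were far under those in the naive library. That difference is therefore given as a description. The data are RNA-seq read counts of CD8+ T cells, the cytotoxic lineage, from spleens of mice labelled WT and Untreated. There was 1 library of effector memory T cells, 1 of central memory T cells and 1 of naive T cells. Effector memory cells patrol blood and tissues, central memory cells keep their lymph node homing receptors, and naive cells have not met antigen. The labels state no strain, age, number of animals or sorting markers. With 1 library in each group no difference has a replicate check and no test between cell states was possible. All intervals are 95% intervals and cover counting error only.

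Notch receptors are cell surface proteins that are cut when a ligand on a neighbouring cell binds them, first by an ADAM protease and then by gamma-secretase. The freed intracellular domain enters the nucleus and joins the DNA-binding protein RBPJ and a Mastermind coactivator, while RBPJ without Notch recruits corepressors. Hes1, Nrarp and Dtx1 are widely used readouts of this activity in T-lineage cells. Notch is known for T lineage commitment in the thymus, and in mature mouse CD8+ T cells for a part in effector differentiation. Dtx1 encodes Deltex1, a RING-type ubiquitin ligase that binds Notch, and in mouse T cells it is also known as a target of NFAT linked to anergy.

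Levels are CPM, read counts scaled to the effective library size. A call of higher or lower required a 2-fold difference or more, an interval without 1, and 5 CPM or more in whichever library was higher. The libraries held 26876909 to 35846315 counts, and 3 counts correspond to 0.0837 to 0.108 CPM. All 8 CD8+ T cell marker genes had counts in each library, and their summed level was 2879 CPM in effector memory, 4437 CPM in central memory and 5679 CPM in naive. The 10 B cell markers summed to 3.16 CPM in effector memory, 7.01 CPM in central memory and 41.8 CPM in naive, and 6, 3 and 0 of them had no count in effector memory, central memory and naive. The 7 NK cell markers summed to 1096 CPM in effector memory, 146 CPM in central memory and 1.04 CPM in naive. Gzma carried most of the sum in effector memory, and Fcer1g was also detected there. The other 5 NK markers were each highest in central memory, among them Ncr1 with 0 counts in effector memory, 437 in central memory and 0 in naive. The 8 dendritic cell markers summed to 103, 171 and 81.6 CPM in effector memory, central memory and naive. Itgax stood at 115 CPM in central memory. In the same order, the 10 myeloid markers summed to 25.3, 8.04 and 8.23 CPM. The 4 CD4 and regulatory T cell markers summed to 94.3, 39.7 and 7.73 CPM, with Zbtb7b at 93.6 CPM in effector memory. The 8 endothelial and stromal markers summed to 55.5, 172 and 153 CPM, and the 6 erythroid markers to 0.375, 0.530 and 1.33 CPM. The proliferation gene Mki67 stood at 1819 CPM in effector memory, 301 CPM in central memory and 2.62 CPM in naive. The segment Trbv12-1 made up 98.4% of the T cell receptor beta variable counts in effector memory, 99.6% in central memory and 7.13% in naive, so each memory library carried almost only this variable segment. Cell state, receptor use and library cannot be told apart.

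The promoters of Dtx1 and Rbpj are shown because these members had the largest ratios in opposite directions. They are RefSeq sequences of build GRCm38.p6, from 250 bases before to 50 bases after a RefSeq transcription start. Capitals mark the core letters of the RBPJ motif, TTCCCA or its reverse complement TGGGAA. The Dtx1 window lies on the minus strand at chr5:120711620-120711919, and the Rbpj window on the plus strand at chr5:53590096-53590395. This Rbpj start lies inside the GENCODE M21 gene, which begins at base 53466152. No window at that outer start was searched.
Dtx1: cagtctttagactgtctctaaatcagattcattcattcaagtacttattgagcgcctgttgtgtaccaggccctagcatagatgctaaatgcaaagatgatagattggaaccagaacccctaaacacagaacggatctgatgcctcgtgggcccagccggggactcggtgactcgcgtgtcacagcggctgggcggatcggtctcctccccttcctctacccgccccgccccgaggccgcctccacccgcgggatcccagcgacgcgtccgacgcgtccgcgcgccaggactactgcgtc
Rbpj: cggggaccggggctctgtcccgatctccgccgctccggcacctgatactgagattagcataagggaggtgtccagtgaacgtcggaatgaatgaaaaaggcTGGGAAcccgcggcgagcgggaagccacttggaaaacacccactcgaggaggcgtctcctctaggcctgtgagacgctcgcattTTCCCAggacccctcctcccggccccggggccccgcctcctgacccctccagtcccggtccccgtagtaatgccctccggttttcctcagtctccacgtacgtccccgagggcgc
The Dtx1 window held no copy of the core letters, and the Rbpj window held 2, starting at base -149 in reverse and at base -65 in forward orientation. The core letters were present in 25.4% of 32544 mouse promoter windows of the same length. The longer form TTCCCAC, which contains the core, was present in 6.39% of them and in none of the windows of the 6 members matched by symbol, all but Hes1. The other Rbpj window overlaps the one shown. Its 1 copy, at base -205 of that window, is the same site as the forward copy shown, so it adds no further copy. The windows of Notch1, Notch2, Numb and Nrarp held none. For Notch1, too, the RefSeq start lies inside the GENCODE M21 gene. A match or its absence describes these letters in this window only.

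Dtx1 had 22 counts in effector memory, 441 in central memory and 13467 in naive (ENSMUSG00000029603.15, chromosome 5, 120680202 to 120711927, minus strand, GENCODE M21 on GRCm38). Its level was 0.688 CPM in effector memory (interval 0.431 to 1.04), 12.3 CPM in central memory (interval 11.2 to 13.5) and 484 CPM in naive (interval 476 to 492). The 3 libraries were well apart, with naive high, central memory much lower and effector memory lowest. Dtx1 was 704-fold lower in effector memory than in naive (interval 464 to 1123) and 17.9-fold lower than in central memory (interval 11.7 to 28.9). It was 39.3-fold lower in central memory than in naive (interval 35.8 to 43.3), so on the log2 scale central memory lay 56.0% of the way from naive to effector memory. In bulk samples, fewer cells with the transcript and less transcript per cell cannot be told apart. Dtx1 is also expressed by B cells, whose summed markers were highest in naive, as given above. Their part in the Dtx1 level was not tested.

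**Figure D1:**
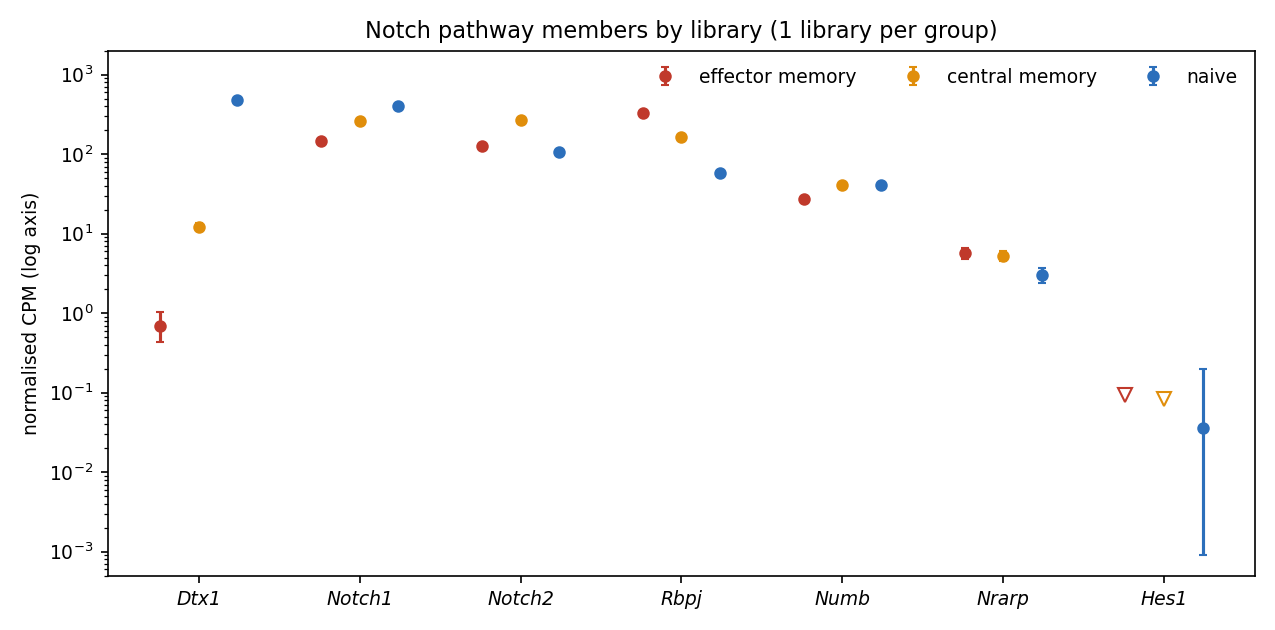
Normalised CPM (log axis) of the 7 members in the effector memory, central memory and naive libraries, 1 point per library with its 95% Poisson counting interval. Open triangles mark 0 counts, drawn at the level of 3 counts. Dtx1 spans 0.688 to 484 CPM, Rbpj runs in the opposite order and Hes1 has 1 count in all.

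In effector memory against naive, 2 of the 6 members that reached 5 CPM were called lower and 1 was called higher, where 15.6% and 22.3% of all 10087 genes measured were. Against central memory, 2 of 6 were called lower and 1 higher in effector memory, where 12.8% and 14.8% of 9975 genes were. In central memory against naive, 1 of 6 was called lower and 2 higher, where 5.12% and 11.2% of 9737 genes were. Dtx1 is among those called lower in each comparison, and since it was chosen on this difference nothing is read from these counts. The comparisons share libraries, so their calls are not independent. Hes1 did not reach 5 CPM in any library.

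**Figure D2:**
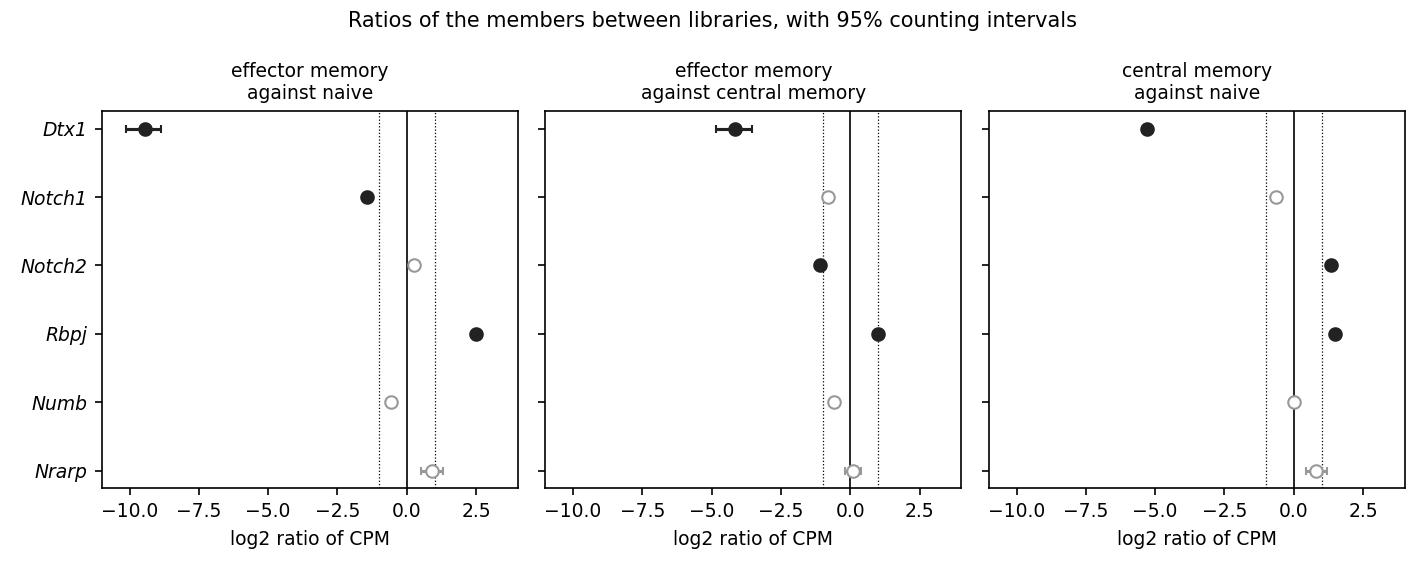
Log2 ratio of CPM of 6 members in each of the 3 comparisons, with 95% counting intervals. Filled points are called, open points are not, and dotted lines mark a ratio of 2. Rbpj lies right of the upper dotted line in both panels against naive and on it in the middle panel, Dtx1 lies far left in each, while Notch2 changes side between panels. Hes1 is left out because it had at most 1 count.

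The receptors differed from each other. Notch1 encodes the receptor best known in T cells (ENSMUSG00000026923.15, chromosome 2, 26457903 to 26516663). It had 4731, 9292 and 11234 counts in effector memory, central memory and naive, or 148, 259 and 404 CPM. Notch1 was 2.73-fold lower in effector memory than in naive (interval 2.64 to 2.82). It was 1.75-fold lower in effector memory than in central memory and 1.56-fold lower in central memory than in naive, and neither passed the 2-fold rule. Exons of Notch1 overlap 0610009E02Rik over 1068 bases and Gm13568 over 414 bases on the opposite strand, and without strand information such reads cannot be told apart.

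Notch2 (ENSMUSG00000027878.11, chromosome 3, 98013527 to 98150361) had 4065, 9624 and 2943 counts, or 127 CPM in effector memory, 269 CPM in central memory and 106 CPM in naive. Here central memory was the high library and the others were close to each other. Notch2 was 2.54-fold higher in central memory than in naive (interval 2.44 to 2.65) and 2.11-fold lower in effector memory than in central memory (interval 2.04 to 2.19). Effector memory and naive differed by 1.20-fold. Gm42820, which shares 541 exon bases with Notch2 on the same strand, had 16 counts in effector memory, 11 in central memory and 7 in naive. Notch3 and Notch4 were sparse, with 0 to 11 and 21 to 103 counts.

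Shares within a library do not depend on the scaling between libraries. Of the counts of the 4 receptor genes, Notch1 took 53.6% in effector memory (interval 52.5% to 54.6%), 48.9% in central memory (interval 48.1% to 49.6%) and 79.0% in naive (interval 78.4% to 79.7%). Notch2 took 46.0% in effector memory, 50.6% in central memory and 20.7% in naive. The naive library was thus dominated by Notch1, and in each memory library the 2 receptors were nearly level in counts. These shares take no account of transcript length. Per kilobase of merged exons, Notch2 stood above Notch1 in effector memory (11.8 against 10.4 CPM) and in central memory (24.9 against 18.2 CPM). Merged exons were 14232 bases for Notch1 and 10782 bases for Notch2, and transcripts in these cells can be shorter. The effector memory order depends on these lengths, since in CPM Notch1 stood above Notch2 there (148 against 127).

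Of the 5 ligand genes, Dll1, Dll3, Dll4 and Jag1 had at most 4 counts in any library. Jag2, the ligand Jagged2, stood at 15.7 CPM in effector memory, 11.2 CPM in central memory and 5.57 CPM in naive, and was 2.82-fold higher in effector memory than in naive (interval 2.35 to 3.40). Lfng encodes Lunatic Fringe, a glycosyltransferase that alters which ligands a Notch receptor answers to. It stood at 156 CPM in effector memory, 430 CPM in central memory and 216 CPM in naive, with central memory highest, as for Notch2. Lfng was 2.76-fold lower in effector memory than in central memory (interval 2.67 to 2.85), and its 1.99-fold higher level in central memory than in naive missed the rule narrowly. The other 4 of the 5 glycosyltransferase genes were called in none of the comparisons.

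Of 10 protease genes, Adam10 and Adam17, which make the first cut, were called in no comparison, with 169, 176 and 168 CPM of Adam10 in effector memory, central memory and naive. Psen2, a catalytic presenilin of gamma-secretase, stood at 15.7 CPM in effector memory, 42.1 in central memory and 20.8 in naive, and was 2.68-fold lower in effector memory than in central memory (interval 2.42 to 2.97). Furin, which cleaves the Notch precursor during maturation, was 2.10-fold higher in central memory than in naive (interval 1.97 to 2.24), at 62.6 CPM in effector memory, 100 in central memory and 47.8 in naive. That call was lost with DESeq2 size factors (1.95-fold) and with upper quartile factors (1.92-fold). The gamma-secretase subunit Aph1a stood at 92.1 CPM in effector memory, 73.1 in central memory and 44.7 in naive, 2.06-fold higher in effector memory than in naive (interval 1.93 to 2.20). Its paralog Aph1b reached only 5.03 CPM in effector memory, with 4 counts in naive, and shares near-identical sequence with Aph1c, so that reads could be split between them. Both Aph1 calls in effector memory against naive were lost with total counts or upper quartile factors, at 1.92-fold for Aph1a and with Aph1b falling under 5 CPM.

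**Figure D3:**
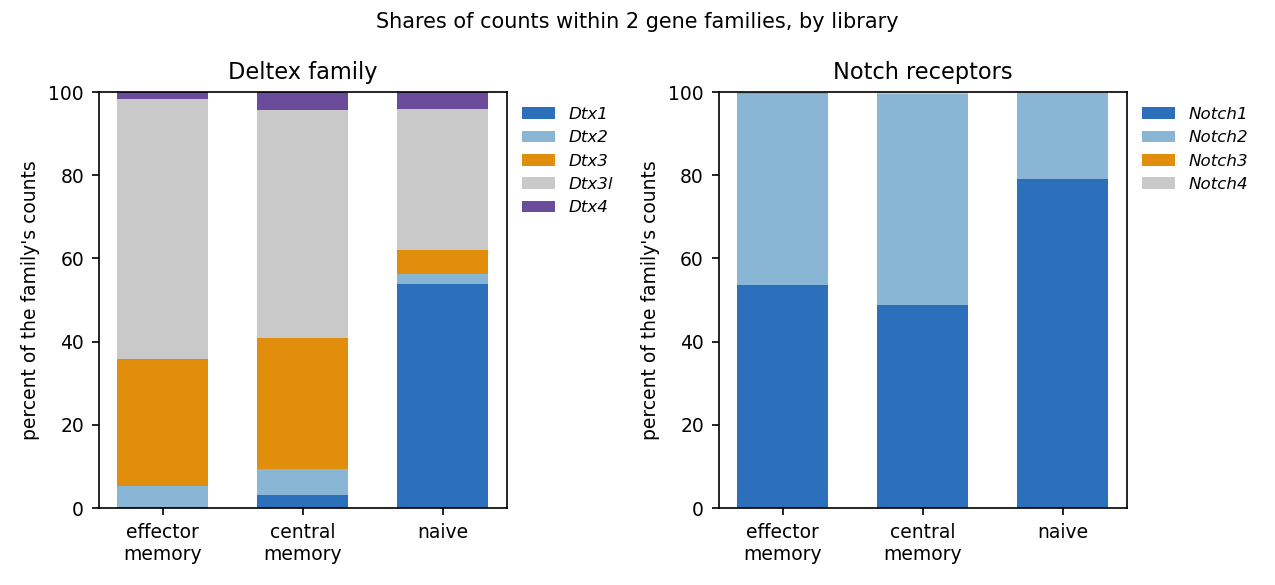
Percent of the counts of the 5 Deltex genes (left) and of the 4 Notch receptor genes (right) taken by each gene in the effector memory, central memory and naive libraries. Dtx1 takes 0.232%, 3.13% and 53.8% of Deltex counts, and Notch1 takes 53.6%, 48.9% and 79.0% of receptor counts.

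Rbpj, the DNA-binding protein through which all Notch receptors act, ran opposite to Notch1. It had 10404 counts in effector memory, 5816 in central memory and 1621 in naive (ENSMUSG00000039191.12, chromosome 5, 53466152 to 53657362, plus strand), or 325 CPM in effector memory, 162 in central memory and 58.3 in naive. Effector memory was the highest library and naive the lowest, with no overlap of their counting intervals. Rbpj was 5.58-fold higher in effector memory than in naive (interval 5.30 to 5.89) and 2.79-fold higher in central memory than in naive (interval 2.64 to 2.95). In effector memory against central memory it stood at the limit of the rule, 2.004-fold higher (interval 1.94 to 2.07), and with total counts the ratio was 1.94 and not called. The Mki67 level had the same order over the libraries, and its part in the Rbpj level was not tested.

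Of 9 measured genes of the activator complex, Rbpj among them, 1 was called higher in effector memory against naive and 4 were called lower, beside 22.3% and 15.6% of all genes measured. The 1 called higher was Rbpj itself. Maml2, a Mastermind coactivator, stood at 24.0 CPM in effector memory, 94.7 CPM in central memory and 89.0 CPM in naive, 3.71-fold lower in effector memory than in naive (interval 3.42 to 4.02). Its relative Maml1 stood at 35.9 CPM in effector memory, 78.0 in central memory and 79.6 in naive, a 2.22-fold lower level in effector memory than in naive (interval 2.06 to 2.38). Crebbp, the acetyltransferase CBP, was 3.14-fold lower (interval 2.99 to 3.31), and the acetyltransferase Kat2b 2.26-fold lower (interval 2.10 to 2.43). Maml3 was not called, at 21.9 CPM in effector memory, 15.9 in central memory and 11.4 in naive. The list's median log2 ratio in effector memory against naive was -0.56, beside 0.06 over all genes measured.

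Of 11 measured corepressor genes, 5 were called lower in effector memory than in naive and none higher, beside 15.6% and 22.3% of all genes measured. The list's median log2 ratio was -0.92, beside 0.06 over all genes measured. Tle3, a Groucho-type corepressor, stood at 71.3 CPM in effector memory, 142 CPM in central memory and 268 CPM in naive, and was 3.75-fold lower in effector memory than in naive (interval 3.58 to 3.94). Tle4 was 3.13-fold lower (interval 2.92 to 3.36) and Spen, a large RBPJ-binding repressor, 2.41-fold lower (interval 2.30 to 2.52). Tle1 was 2.40-fold lower. Ncor1 was not called at 1.89-fold lower, and passed the rule with total counts or upper quartile factors. In central memory against naive none of the 10 measured corepressor genes was called, although Tle3 was called lower with DESeq2 size factors (ratio 0.493) or upper quartile factors (ratio 0.487). The median log2 ratio was -0.11 beside 0.14 over all genes measured. Of 11 measured in effector memory against central memory, 3 were called lower, Spen and Tle4 among them, and Tle2 was called higher at 8.57 CPM against 3.10 CPM.

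**Figure D4:**
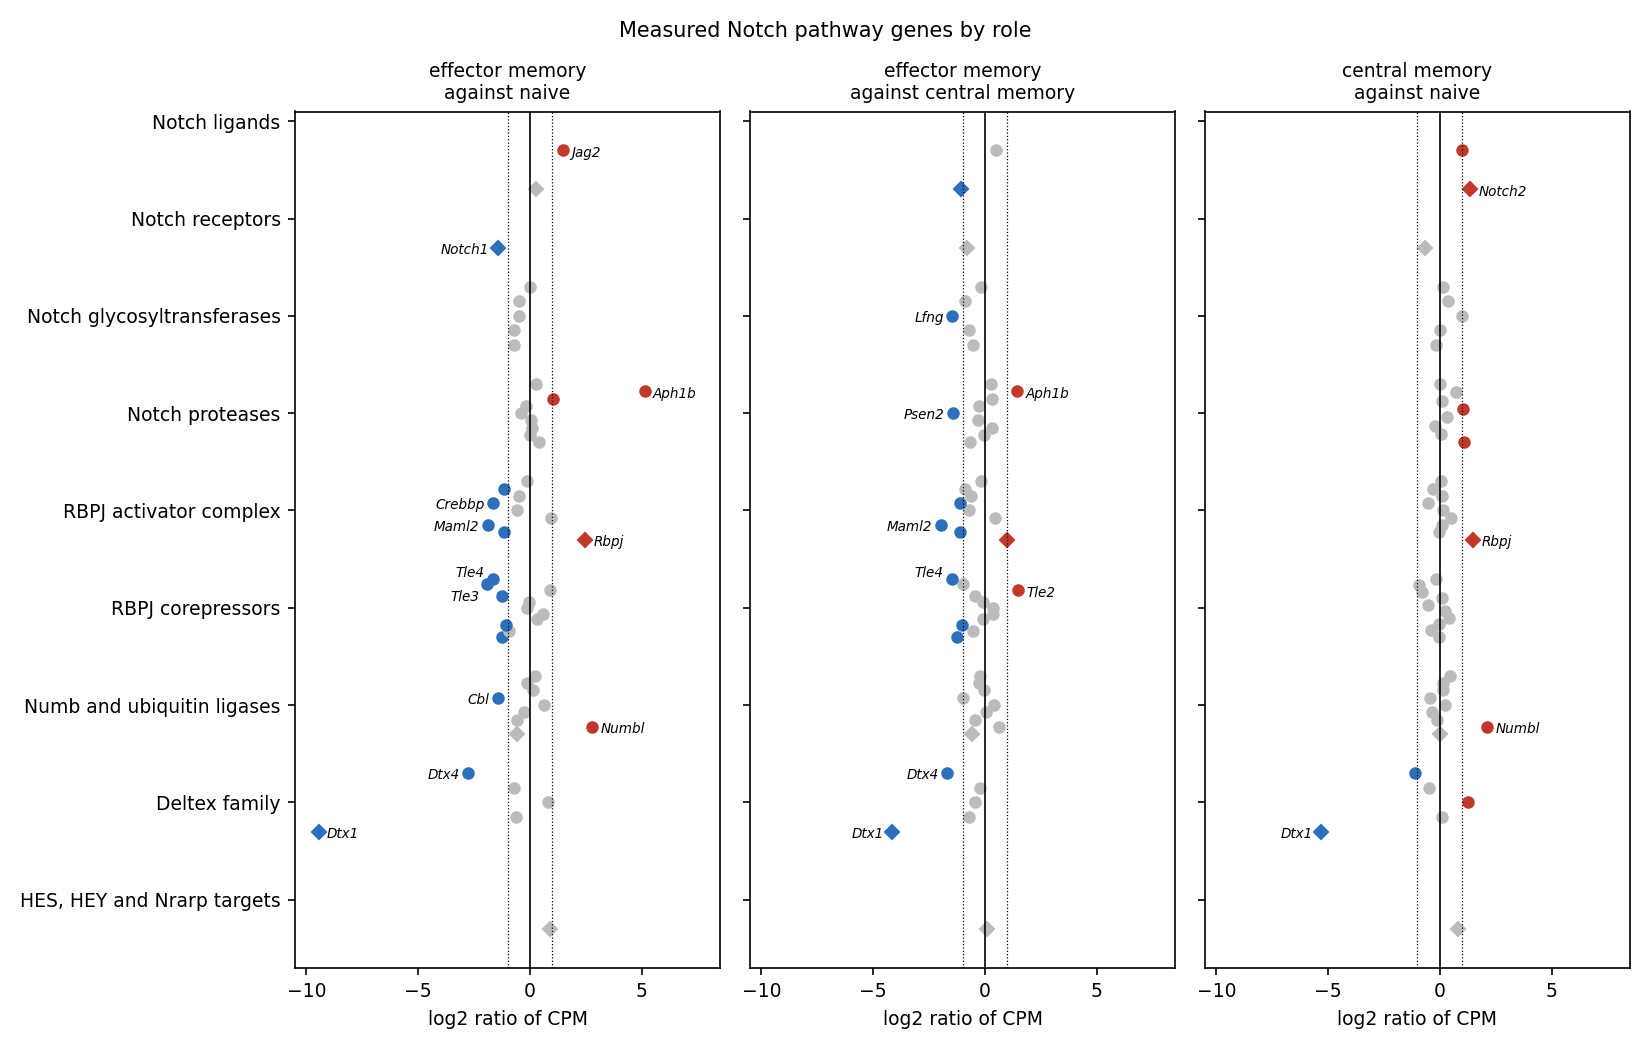
Log2 ratio of CPM of the measured pathway genes (5 CPM or more in the higher of both libraries), by role, in each of the 3 comparisons. Diamonds are the members, circles the other genes, red marks calls of higher, blue calls of lower and grey no call. In effector memory against naive Rbpj stands right while Maml2, Crebbp, Tle3 and Tle4 stand left.

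Numb encodes an adaptor that counters Notch at the membrane (ENSMUSG00000021224.15, chromosome 12, 83794034 to 83921934). It was called in no comparison, with 874, 1462 and 1143 counts, or 27.3 CPM in effector memory, 40.8 CPM in central memory and 41.1 CPM in naive. It was 1.503-fold lower in effector memory than in naive (interval 1.38 to 1.64), under the 2-fold rule, and central memory and naive differed by 1.01-fold with an interval that held 1. Numb shares 166 exon bases with Gm46367 on the opposite strand. Its paralog Numbl stood at 15.1 CPM in effector memory, 9.60 in central memory and 2.19 in naive, 6.88-fold higher in effector memory than in naive (interval 5.26 to 9.13). Numbl was also 4.38-fold higher in central memory than in naive (interval 3.33 to 5.85). Of the ubiquitin ligases, Cbl was 2.68-fold lower in effector memory than in naive (interval 2.61 to 2.76), at 208 CPM in effector memory, 410 in central memory and 558 in naive. Itch, which ubiquitinates Notch, Nedd4, Fbxw7, which marks the intracellular domain for degradation, Mib1 and Mib2 were called in no comparison.

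Within the Deltex family the genes differed in direction. Dtx1 took 0.232% of the family's counts in effector memory (interval 0.145% to 0.350%). Its share was 3.13% for central memory, 441 of 14102 counts, and 53.8% for naive, 13467 of 25021 counts. Dtx4, a related ubiquitin ligase, had the same order of libraries, at 5.35 CPM in effector memory, 17.2 CPM in central memory and 36.7 CPM in naive. It was 6.86-fold lower in effector memory than in naive (interval 5.83 to 8.11), and 2.13-fold lower in central memory than in naive (interval 1.92 to 2.36). Dtx3 stood at 90.9 CPM in effector memory, 124 in central memory and 51.8 in naive, and was 2.40-fold higher in central memory than in naive (interval 2.26 to 2.55). Dtx3l, the partner of PARP9 in interferon responses, stood at 185 CPM in effector memory, 215 in central memory and 304 in naive and was not called. Dtx2 stood at 14.8 CPM in effector memory, 24.6 in central memory and 23.0 in naive and was not called. Exons of Dtx3l and Parp9 overlap on opposite strands, and without strand information their shared reads cannot be told apart.

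The HES, HEY and Nrarp targets were low or absent in each library, while Dtx1 ranged from 0.688 CPM in effector memory to 484 CPM in naive. Hes1, a repressor and the classical Notch target (ENSMUSG00000022528.8, chromosome 16, 30064384 to 30067796), had 0, 0 and 1 counts in effector memory, central memory and naive. The floor of 3 counts is 0.0938 CPM in effector memory and 0.0837 CPM in central memory, and no fold is given. Hes5 had 0, 0 and 22 counts in effector memory, central memory and naive, and Hey1 6, 8 and 24, all under 1 CPM. Hes7, Hey2 and Heyl had at most 6 counts in any library.

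Nrarp encodes an ankyrin repeat protein that is induced by Notch and feeds back on it (ENSMUSG00000078202.3, chromosome 2, 25180758 to 25183339). It had 181, 190 and 84 counts, or 5.66 CPM in effector memory, 5.30 CPM in central memory and 3.02 CPM in naive. It was 1.87-fold higher in effector memory than in naive (interval 1.44 to 2.46) and 1.76-fold higher in central memory than in naive (interval 1.35 to 2.30), and neither passed the rule. The memory libraries did not differ beyond counting error (1.07-fold, interval 0.866 to 1.31). Nrarp and Dtx1 thus stood on opposite sides of naive. In GENCODE M21, 2051 of the 2582 exon bases of Nrarp are also covered by Gm38287 on the opposite strand, so their reads could not be told apart if strand was not used in counting.

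Levels of different genes can be compared only per length of transcript, here as CPM per kilobase of merged exons. Merged exons can be longer than the transcripts present, so the order of genes at close levels depends on the gene models. In effector memory the order was Rbpj at 25.5, Notch2 at 11.8, Notch1 at 10.4, Numb at 6.98, Nrarp at 2.19 and Dtx1 at 0.131 CPM per kilobase. In central memory it was Notch2 at 24.9, Notch1 at 18.2, Rbpj at 12.7, Numb at 10.4, Dtx1 at 2.34 and Nrarp at 2.05. In naive it was Dtx1 at 91.8, Notch1 at 28.4, Numb at 10.5, Notch2 at 9.81, Rbpj at 4.57 and Nrarp at 1.17. Dtx1 was the most abundant member in naive and Rbpj in effector memory. With 1 library in each group it is not known which neighbours in these orders differ beyond replicate spread.

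Of 60 other pathway genes, 46 were measured in effector memory against naive, and 4 were called higher and 11 lower, a median log2 ratio of -0.22 beside 0.06 over all genes measured. In effector memory against central memory 2 of 46 were called higher and 9 lower, with a median of -0.37 beside -0.06. In central memory against naive 5 of 44 were called higher and 1 lower, with a median of 0.08 beside 0.14. In effector memory against naive, higher calls were 8.70% and lower calls 23.9% of the measured pathway genes, beside 22.3% and 15.6% of all genes measured. Against central memory, the shares in effector memory were 4.35% higher and 19.6% lower, beside 14.8% and 12.8%. For central memory against naive they were 11.4% higher and 2.27% lower, beside 11.2% and 5.12%.

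Genes that Notch is known to induce outside the HES family went in different directions. Of 7 measured T lineage targets, 2 were called higher and 2 lower in effector memory against naive, beside 22.3% and 15.6% of all genes measured. Il2ra, the interleukin 2 receptor alpha chain, stood at 456 CPM in effector memory, 48.6 in central memory and 0.719 in naive. Tcf7, which encodes the transcription factor TCF-1, stood at 51.5 CPM in effector memory, 1091 in central memory and 1449 in naive. Also called in effector memory against naive were Ccnd3, 2.37-fold higher (interval 2.29 to 2.46), and Il7r, 6.98-fold lower (interval 6.68 to 7.29). In central memory against naive Il7r was not called (ratio 0.509). It was called lower there with total counts (0.491), DESeq2 size factors (0.473) or upper quartile factors (0.467). Igf1r, the insulin-like growth factor receptor, had its highest level in central memory, at 21.1 CPM in effector memory, 90.2 in central memory and 28.1 in naive. Gata3 was called in no comparison, nor was Myc except as lower in effector memory against central memory with total counts (ratio 0.499), and Ptcra had no count in any library. Of the effector genes reported as Notch targets in mouse CD8+ T cells, Gzmb, Prf1 and Eomes were measured. Each was called higher in effector memory against naive, where 22.3% of all genes measured were. A part of Notch in these levels was not tested. Ifng stayed under 5 CPM throughout. The Eomes call was lost with total counts (1.96-fold) or upper quartile factors (1.95-fold). Gzmb, the protease granzyme B, stood at 6317 CPM in effector memory, 152 CPM in central memory and 0.575 CPM in naive.

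Anergy is the unresponsive state in which mouse Dtx1 has been described. Among 10 genes associated with it, 4 were called lower and 1 higher in effector memory against naive, beside 15.6% and 22.3% of all genes measured. These genes need not act on anergy in the same direction, so the counts are not read as a change in that state. Egr2, a transcription factor induced with NFAT, stood at 0.188 CPM in effector memory, 9.52 in central memory and 17.1 in naive. Its relative Egr3 stood at 1.13 CPM in effector memory, 16.0 in central memory and 37.8 in naive. Egr3 was 33.6-fold lower in effector memory than in naive (interval 24.1 to 48.2), and both genes had the library order of Dtx1. Dgka, a diacylglycerol kinase that dampens receptor signalling, was 3.28-fold lower (interval 3.22 to 3.35), and Prkcq, the kinase PKC theta, 2.05-fold lower (interval 1.99 to 2.11). Rnf128, the ubiquitin ligase GRAIL, had 278 counts in effector memory, 38 in central memory and 0 in naive. With naive set at 3 counts, the bound was 80.6-fold higher in effector memory than in naive. The lower limit of the counting interval was 65.1-fold. Cblb, a ubiquitin ligase that restrains T cell activation, stood at 272 CPM in effector memory, 310 in central memory and 153 in naive. Its ratio of 2.03 in central memory against naive was called, but not with total counts (1.96), DESeq2 size factors (1.88) or upper quartile factors (1.86).

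The genes most like Dtx1 were sought by the distance between their 2 log2 ratios to naive over the 3 libraries, among 7972 named genes with at least 20 CPM in the highest library. The nearest was Tlr7, a sensor of single-stranded RNA, at 0.0625 CPM in effector memory, 0.391 CPM in central memory and 26.4 CPM in naive, at a distance of 1.07 log2 units. Kcna2, a potassium channel, followed at 0.0625 CPM in effector memory, 3.43 in central memory and 125 in naive and a distance of 1.51. Ntrk3, a neurotrophin receptor, Timp2, a metalloproteinase inhibitor, Ifit3, an interferon-induced protein, Atp1b1, a sodium pump subunit, Slc16a5, of the monocarboxylate transporter family, and Amigo2, an adhesion protein, lay at distances of 2.11 to 2.69. Through this choice all 8 were high in naive, lower in central memory and at most 14 counts in effector memory. None reached the naive level of Dtx1 in CPM. The distances rest on these few effector memory counts and have no counting interval. Ntrk3 had 0 counts in effector memory and entered at 3 counts.

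**Figure D5:**
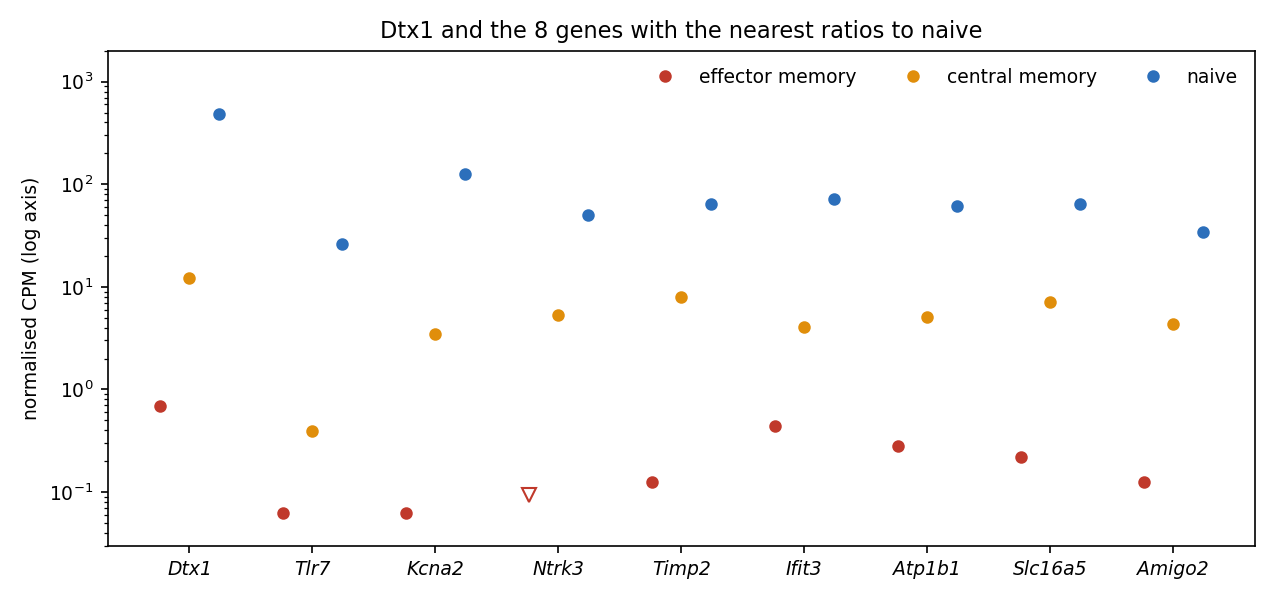
Normalised CPM (log axis) of Dtx1 and the 8 genes with the nearest ratios to naive, 1 point per library, with an open triangle for 0 counts drawn at the level of 3 counts. Each gene runs from under 1 CPM in effector memory to its highest level in naive, which is 484 CPM for Dtx1 and 26.4 to 125 CPM for the others.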

How the data were processed

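The authors deposited raw counts for each gene in 3 libraries, made, per the submitters' processing notes, with CASAVA, HISAT2 2.0.5 and featureCounts 1.5.0-p3 on mm10. Which annotation and strand setting were used, and how reads with several hits were counted, is not given in the sources used here. The columns TN, TCM and TEM were read as abbreviations of naive, central memory and effector memory. Scaling used the TMM factors of edgeR 4.0.16, run in R 4.3.3 (0.967 for effector memory, 0.999 for central memory, 1.04 for naive). Ratios have exact conditional (Clopper-Pearson) intervals and levels have exact Poisson intervals, computed with SciPy 1.17.1. A library at 0 entered a ratio at 3 counts, given as a bound, and no ratio was formed where both libraries had 3 counts or fewer. The rule for calls is one of size and not a test. It was tried on simulated counts with counting error only, without variation between replicates. The planted changes were larger than 2-fold, so calls near that limit were not covered. Gene models and exon lengths are those of GENCODE M21, which held 98.7% of the gene names.

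The members and lists were chosen with earlier results of these data known. All 7 members are named, with called genes of each list and the 8 genes nearest to Dtx1. Marker genes in the opening, Mki67 and Trbv12-1 among them, and uncalled pathway genes were named outside this rule. Alternative scalings used total counts, the size factors of DESeq2 1.42.0 or upper quartiles, and alternative rules used minimum levels of 1 and 20 CPM or none and ratios of 1.5 and 4.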

Additional observations from a re-analysis of the deposited data

How the results depend on the processing

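Of 54 recomputed ratios of the members under total counts, DESeq2 size factors and upper quartile factors, 53 kept their call and none changed direction. The exception was Rbpj in effector memory against central memory with total counts (log2 ratio 0.95, not called). Against TMM, the scalings moved the median log2 ratio of all measured genes by -0.10 (effector memory against naive, upper quartile) and by -0.11 and -0.12 (central memory against naive, DESeq2 and upper quartile). The number of members called, 3 in each comparison, became 5 in both comparisons with naive at a ratio of 1.5, and 1 in both comparisons with central memory at a ratio of 4.

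Counts of other pathway genes were small and moved with the rule. In effector memory against naive, 4 higher calls became 2 (total counts, upper quartile, ratio 4), 1 (minimum 20 CPM) or 9 (ratio 1.5), and 11 lower calls became 1 at a ratio of 4. Between effector memory and central memory, 2 higher calls became 1 (total counts, upper quartile), 0 (minimum 20 CPM, ratio 4) or 5 (no minimum), and 9 lower calls became 18 at a ratio of 1.5 and 0 at 4. In central memory against naive, 5 higher calls became 3 (total counts, minimum 20 CPM), 2 (DESeq2, upper quartile), 8 (minimum 1 CPM, no minimum) or 1 (ratio 4), and 1 lower call became 2 (DESeq2, upper quartile), 3 (no minimum, ratio 1.5) or 0 (ratio 4). At a minimum of 20 CPM, Dtx1 in effector memory against central memory was not called, since its higher level was 12.3 CPM. No paired analysis was possible because each group has 1 library. Hes1, Hes5, Hey1 and most ligand genes did not reach 5 CPM in any library, so the main rule could not call them.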
